A study of Mus musculus with 288 samples.

Results

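Mouse lung cells of the Scgb1a1 lineage were divided by 2 secreted products, the airway secretoglobin Scgb3a1 and the alveolar surfactant protein Sftpc, and the sides were compared across genes. A well was placed on the Scgb3a1 side when Scgb3a1 made up at least 1% of its counts and Sftpc less, and on the Sftpc side when the reverse held. Of 288 wells, 286 held a sorted single cell and 2 were negative controls with medium only. The higher control held 234 counts, and sorted wells with over 10 times as many, or 2340, were kept, which left 227. The members were chosen by the measured shares of these 2 genes, so every difference between the sides is given as a description. Of these, 74 were on the Scgb3a1 side (32.6%, exact Clopper-Pearson interval 26.5 to 39.1%), 63 on the Sftpc side (27.8%, 22.0 to 34.1%) and 90 on neither (39.6%, 33.2 to 46.3%). No kept well reached 1% for both genes, which allows a share of up to 1.61%, and none did at limits of 0.5, 2 or 5%.

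All sorted cells, on either side, came from lungs of C57BL/6 mice aged 4 months with the genotype Scgb1a1-CreER;Rosa26-mTmG. The recombinase is driven by the promoter of the club cell gene Scgb1a1, and the reporter switches its fluorescent protein in cells where it has acted and in their descendants. The gate kept Epcam+ CD45- CD31- cells that were low in CD24 and positive for this lineage label. No label names the animal of a cell, so all wells were treated as 1 sample. There is no replicate, no test and no p-value in what follows, and intervals are at 95% and cover counting error only.

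Club cells are secretory cells of the small airways that release secretoglobins and carry cytochrome P450 enzymes that metabolise inhaled chemicals. Scgb3a1 is a small secreted secretoglobin of airway secretory cells, and its wells are described here beside genes of mucous and antimicrobial secretion. Alveolar type 2 (AT2) cells make surfactant, a film of lipid and surfactant proteins that is stored in lamellar bodies and lowers surface tension in the air spaces. Sftpc encodes surfactant protein C, a defining product of AT2 cells.

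Upstream sequences are shown for Scgb3a1, which defined one side, for Bpifa1, the gene far higher on that side, and for Lamp3 and Slc34a2, which were far higher on the Sftpc side. They are the 250 bases before the start of each gene in RefSeq (GRCm38.p6). Their positions are chr11:49663345-49663594 (plus strand) for Scgb3a1, chr2:154142630-154142879 (plus) for Bpifa1, chr16:19706366-19706615 (minus) for Lamp3 and chr5:53049103-53049352 (plus) for Slc34a2. In GENCODE M21, the Slc34a2 window lies within an intron of a longer transcript of the gene, and the last bases of the Lamp3 and Slc34a2 windows overlap an annotated first exon. Each is printed 5′ to 3′ in the direction of its gene, with matches to 3 searched motifs in capitals.
Scgb3a1: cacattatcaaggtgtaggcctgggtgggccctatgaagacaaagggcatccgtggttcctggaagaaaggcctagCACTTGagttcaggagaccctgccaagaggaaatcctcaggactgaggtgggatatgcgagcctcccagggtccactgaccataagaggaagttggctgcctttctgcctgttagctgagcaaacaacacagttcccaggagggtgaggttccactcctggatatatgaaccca
Bpifa1: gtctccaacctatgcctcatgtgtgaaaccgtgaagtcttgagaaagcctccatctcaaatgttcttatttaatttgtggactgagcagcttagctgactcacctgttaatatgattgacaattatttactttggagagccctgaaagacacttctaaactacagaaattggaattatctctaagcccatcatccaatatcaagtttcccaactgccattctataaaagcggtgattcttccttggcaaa
Lamp3: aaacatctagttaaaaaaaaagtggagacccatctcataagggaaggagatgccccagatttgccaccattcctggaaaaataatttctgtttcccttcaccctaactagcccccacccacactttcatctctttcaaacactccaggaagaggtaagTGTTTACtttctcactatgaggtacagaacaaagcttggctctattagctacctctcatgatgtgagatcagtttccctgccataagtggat
Slc34a2: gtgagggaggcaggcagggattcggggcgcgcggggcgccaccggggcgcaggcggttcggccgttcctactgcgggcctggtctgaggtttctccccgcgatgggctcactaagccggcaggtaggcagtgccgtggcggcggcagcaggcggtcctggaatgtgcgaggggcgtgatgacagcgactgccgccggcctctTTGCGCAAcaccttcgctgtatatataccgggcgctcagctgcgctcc

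The motifs were searched on both strands as exact letters: TGTTTAC for FOXA factors, TTGCNNAA for CEBP factors and CAAGTG for NK2 factors such as Nkx2-1. Scgb3a1 held CAAGTG on the opposite strand, starting 174 bases before the gene. Lamp3 held TGTTTAC at 92 bases and Slc34a2 TTGCNNAA at 48 bases before the start, and Bpifa1 held none of the 3. Over 27025 RefSeq promoters of this length, 3.09% held TGTTTAC, 9.55% TTGCNNAA and 11.6% CAAGTG. Among the genes measured below, here with Scgb3a1 itself in its group, TGTTTAC was in 2.69% of 372 promoters of genes higher on the Scgb3a1 side, in 3.35% of 597 of those higher on the Sftpc side and in 1.55% of 2068 of the others. TTGCNNAA was in 9.41, 7.04 and 7.54% of these promoters and CAAGTG in 11.6, 11.2 and 8.56%, in the same order of groups. These shares are a description of letters in the window.

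The sides differed in depth and in where their wells lay in the table. Wells of the Scgb3a1 side held 3376 to 15088 counts (median 6940.5) and 1191 to 2898 detected genes (median 1763.5), 513183 counts in all. Those of the Sftpc side held 2384 to 8806 counts (median 3529) and 948 to 2516 genes (median 1299), 240677 counts in all. Of the 3 successive sets of 96 columns, the first held 38 wells of the Scgb3a1 side and 6 of the Sftpc side, the second 31 and 17, and the third 5 and 40. No label says what a set is, so side and set are partly mixed, and ratios within each set are given below. Levels are pooled CPM, the summed counts of a gene on a side scaled to the side's total. A count of 0 allows up to 3 counts, or 5.85 CPM on the Scgb3a1 side and 12.5 CPM on the Sftpc side. A ratio given as at least x-fold has 3 counts in place of 0. The near bound of its exact interval, the bound nearest to 1, is lower, such as 410-fold against 506-fold for Napsa. Fewer cells with a transcript and less transcript per cell were told apart only through the share of wells with a count, which rises with depth. For genes where it matters most, the share is also given after thinning every well to 2384 counts, which left out no well.

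The values of the 2 genes that chose the members were as follows. In the 74 wells of the Scgb3a1 side, Scgb3a1 made up 1.01 to 10.7% of the counts (median 4.84%). The lowest wells inside the limit had 1.01, 1.02 and 1.19%, and the highest kept wells outside it 0.876, 0.200 and 0.154%. In the 63 wells of the Sftpc side, Sftpc made up 2.07 to 24.7% (median 16.6%), with 2.07, 5.36 and 6.70% in the lowest wells inside and 0.734, 0.442 and 0.233% in the highest outside. Traces of the opposite gene were common but small. Of the Scgb3a1 side, 43.2% of wells held a Sftpc count, at most 4 counts, and 20.6% of wells on the Sftpc side held a Scgb3a1 count, at most 2. The controls held at most 1 Scgb3a1 count and no Sftpc count.

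**Figure D1:**
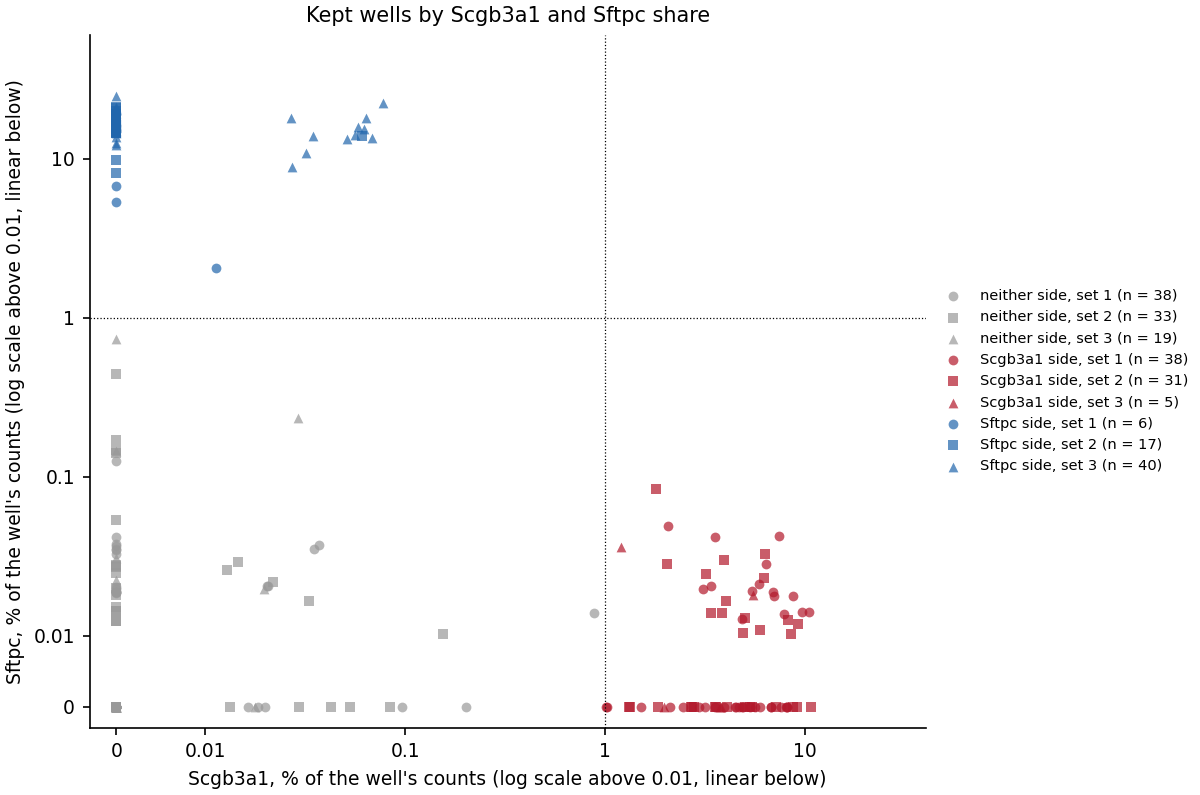
Share of counts of Scgb3a1 (x axis) and Sftpc (y axis) in each of the 227 kept wells, coloured by side and marked by set, with the 1% limits dotted and both axes logarithmic above 0.01%. The upper right field is empty, and the wells of the Sftpc side lie at or near 0 for Scgb3a1.

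Across genes, 3832 had at least 20 counts over both sides, without the 2 genes of the rule, and are called measured. Of these, 505 (13.2%) were at least 2-fold higher on the Scgb3a1 side and 756 (19.7%) on the Sftpc side, 32.9% in either direction, with a median log2 ratio of -0.20. The split depends on scaling: with TMM factors it was 773 and 472, and with the median of ratios 737 and 523. TMM moved the median of all genes by 0.39 on the log2 scale, so the share of calls on the Scgb3a1 side was 40.0% on plain totals and 62.1% with TMM. On totals without Scgb1a1, Scgb3a1, Sftpc and the ribosomal RNA gene Rn45s, which together took 36.7% of the counts of the Scgb3a1 side and 31.5% of those of the Sftpc side, the split was 580 and 650. Ratios near 2-fold are therefore read with care, and the genes described first differed by far more than these shifts. Many genes reached 20 counts only through the side where they were high and had to differ.

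**Figure D2:**
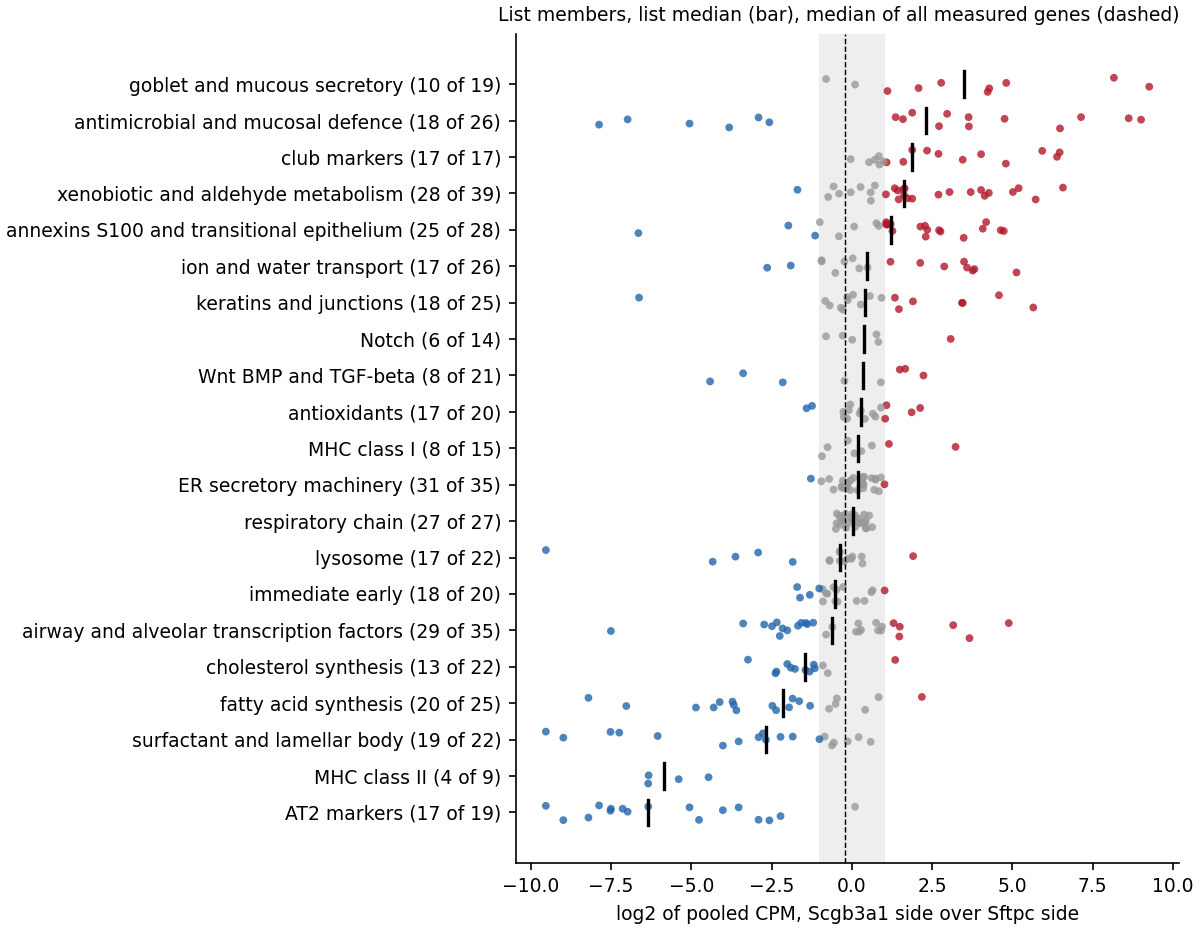
Log2 ratio of pooled CPM (Scgb3a1 side over Sftpc side) of each measured list member, with the list's median as a bar and the median of all measured genes dashed; labels give measured of listed members and grey shading marks less than 2-fold. Goblet, antimicrobial and club lists lie to the right, AT2, MHC class II and surfactant lists to the left, and respiratory chain genes within the shading.

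Club cell genes were higher on the Scgb3a1 side, but not all of them. Of 17 measured club markers 11 were at least 2-fold higher there and none on the Sftpc side, with a median log2 ratio of 1.88. The share of all measured genes called on the Scgb3a1 side was 13.2%. Markers such as Chad and Lypd2 reached the limit of 20 counts only through that side, and Chad had to be called. Scgb1a1, the club cell secretoglobin whose promoter drives the lineage label (chromosome 19, 9083636 to 9087958 in GENCODE M21), took 5.55 to 33.2% of the counts in wells of the Scgb3a1 side (median 23.5%). On the Sftpc side it took 0.0278 to 24.3% (median 0.968%), a range that overlaps the other, and 10 wells held 83.7% of its counts there. The pooled ratio was 5.07-fold (4.97 to 5.17). Scgb3a2, a further airway secretoglobin, took 0.166 to 8.57% (median 4.46%) against 0 to 1.98% (median 0%), a 27.8-fold difference (25.1 to 30.8), with a count in every well of the first side and in 46.0% of the second.

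Other club genes fell into a wide range of ratios. Cyp2f2, a cytochrome P450 of club cells, had 13502 CPM on the Scgb3a1 side and 2082 on the Sftpc side, 6.49-fold (5.92 to 7.12). Aldh1a1, a retinal and aldehyde dehydrogenase, had 2771 and 170 CPM, 16.3-fold (11.9 to 22.8), with a count in every well against 17.5% of wells. The copper carrier ceruloplasmin Cp (60.9-fold, 26.0 to 188), Lypd2 (83.7-fold, 38.3 to 229) and the matrix protein gene Chad (88.6-fold, 30.2 to 431, from 3 counts on the Sftpc side) were far apart. By contrast the carbonyl reductase Cbr2 was detected in every well of both sides at 14650 and 8925 CPM, 1.64-fold. Haptoglobin Hp was in 98.6 and 92.1% of wells at 2855 and 1969 CPM, 1.45-fold, and within the first set it was lower on the Scgb3a1 side (log2 -0.54). Neither gene reached the 2-fold limit on plain totals, while with TMM factors the log2 ratio of Cbr2 was 1.11.

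Part of the club signal on the Sftpc side came from few wells. In 5 of its 63 wells Scgb1a1 took at least 10% of the counts, with 19.7 to 24.3% Scgb1a1 and 2.07 to 9.80% Sftpc in the same well. These wells also held Cyp2f2 at 0.366 to 1.22%, Scgb3a2 at 0.174 to 1.98%, 4 to 10 counts of the AT2 protease gene Napsa and 1 to 9 counts of Lamp3. Their totals were 4798 to 8806 counts (median 6906), against 2384 to 6782 (median 3367.5) in the other 58 wells, where Scgb1a1 took 0.0278 to 9.47% (median 0.732%). They were singled out after their values were seen, 3 of them lie in the first set, and whether any held more than 1 cell was not tested. Without them the log2 ratio of Scgb1a1 was 3.85 in place of 2.34, the log2 ratio of Scgb3a2 was 6.95 in place of 4.80 and the log2 ratio of Aldh1a1 was 6.35 in place of 4.02. The wells were picked by their Scgb1a1 share, so the rise for Scgb1a1 was fixed by the choice. Scgb3a2 and Aldh1a1 are club markers as well, and their rises follow the same choice of wells and are no separate support.

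Genes of mucous and antimicrobial secretion gave the largest ratios on the Scgb3a1 side. Of 10 measured goblet and mucous genes 8 were at least 2-fold higher there and none on the Sftpc side (median log2 3.51, with 3 genes at a lower bound). Among all measured genes the share called on the Scgb3a1 side was 13.2%. Genes such as Muc5b and Tff2 reached 20 counts only through that side and had to be called. The gel-forming mucin Muc5b was detected in every well of the Scgb3a1 side, at 129 to 6289 CPM per well (median 1991), and in 3.17% of wells of the Sftpc side. Its ratio was 286-fold with a counting interval of 79.0 to 2363, from 2 counts on the Sftpc side. The trefoil peptide Tff2, which is secreted with mucus, was in 93.2 and 1.59% of wells, with 1307 counts against 1 (613-fold, 110 to 24229). Agr2, a chaperone of mucin folding, and the goblet protein Clca1 had no count on the Sftpc side and were at least 19.4-fold and at least 18.8-fold higher on the Scgb3a1 side, in 50.0 and 31.1% of its wells (30.6 and 20.5% after thinning). The membrane mucin Muc1 differed by 1.07-fold, at 717 and 669 CPM.

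Antimicrobial genes were split between the sides. Of 18 measured members 12 were at least 2-fold higher on the Scgb3a1 side and 6 on the Sftpc side. The shares of all measured genes called were 13.2 and 19.7%, in the same order. Ltf and the lysozyme gene Lyz1 reached 20 counts only through the side where they were high, so such calls were fixed in advance. Bpifa1, an abundant airway surface protein (chromosome 2, 154142880 to 154149219), ranged from 0 to 22.0% of the counts within the Scgb3a1 side, with a median of 0.401%. It was at or above 1% in 31 of the 74 wells, and the top 10 wells held 67.0% of its counts. On the Sftpc side it was at 0 in all but 7.94% of wells, and the pooled ratio was 514-fold (300 to 965). The neighbouring gene Bpifb1 was 89.4-fold higher (54.9 to 157), and on the Sftpc side 1 well held 75.0% of its counts. The lectin Reg3g ranged from 0 to 2.67% (median 0.442%) and was 393-fold higher (153 to 1445). Lactoferrin Ltf had 900 counts against none and was at least 141-fold higher (near bound 114-fold), with 17.0% of its counts in 1 well. Pigr, the receptor that carries IgA into the lumen, was 27.0-fold higher (13.0 to 67.6) and present in 97.3% of wells (79.7% after thinning).

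The 6 antimicrobial genes of the Sftpc side were Lyz1, Lyz2, Lcn2, Cxcl15, the chitinase-like gene Chil1 and the collectin Sftpd. Lyz2 had 7878 CPM on the Sftpc side (98.4% of wells) and 62.4 on the other (9.46% of wells), 126-fold (89.2 to 185). Lyz1 had 1824 and 7.79 CPM, 234-fold (90.8 to 863). The 2 lysozyme genes are close copies, and no source used here says how reads matching both were counted. The chemokine Cxcl15 was at 9515 and 286 CPM, 33.2-fold (28.1 to 39.5). The siderophore binder Lcn2 was 14.1-fold higher on the Sftpc side (8.88 to 23.5), with a count in 74.6% of wells against 16.2% (62.4 and 8.30% after thinning). Wfdc2, a secreted protease inhibitor, was present in every well of both sides and 2.57-fold higher on the Scgb3a1 side.

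**Figure D3:**
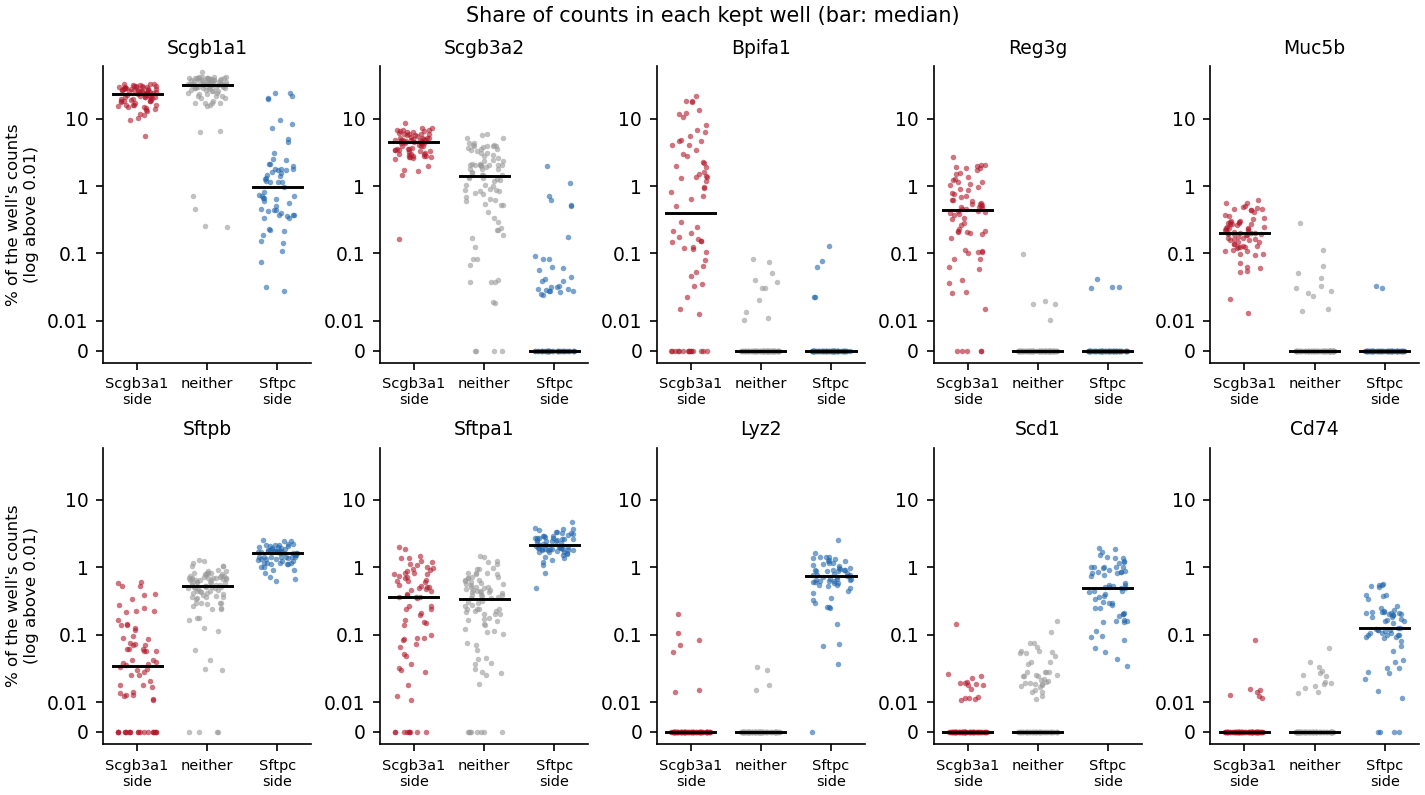
Share of counts of 10 genes in each kept well (points; y axis logarithmic above 0.01%), by side and in the wells on neither side, with medians as bars. Bpifa1 spreads from 0 to 22.0% within the Scgb3a1 side, and Sftpb separates the 2 sides, while the wells on neither side, from 0 to 12791 CPM, overlap both.

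Detoxifying enzymes were mostly higher on the Scgb3a1 side. Of 28 measured genes of xenobiotic and aldehyde metabolism 19 were at least 2-fold higher there and 1 on the Sftpc side (median log2 1.61). The list summed to 45403 CPM on the Scgb3a1 side and 15390 CPM on the Sftpc side. It was highest in the wells on neither side, at 64998.5 CPM. The P450 Cyp2a5 had 338 counts against none, at least 52.8-fold higher (near bound 42.7-fold), in 64.9% of wells (50.5% after thinning). Glutathione transferase Gsto1 was 32.3-fold higher (20.9 to 53.1), and the sulfotransferase Sult1d1 95.2-fold (16.9 to 3779, from 1 count on the Sftpc side). Within the first set the list's median was 0.80, below the 2-fold limit, and in the second it was 1.78 and in the third 2.14. Of 17 measured antioxidant genes, 4 (23.5%) were higher on the Scgb3a1 side and 2 (11.8%) on the Sftpc side. The selenoprotein Gpx2 was among the 4 (4.37-fold, 2.60 to 7.84). Among all measured genes these shares were 13.2 and 19.7%. The median log2 ratio of the antioxidant list was 0.28. By set it was 0.02, -0.27 and -0.36, so its direction changed.

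On the Sftpc side, the AT2 programme was nearly complete. Of 17 measured AT2 markers other than Sftpc, 16 were at least 2-fold higher there and none on the Scgb3a1 side (median log2 -6.34). The exception was Muc1. Among all measured genes the share called on the Sftpc side was 19.7%. Markers such as Napsa, Lamp3 and Lgi3 reached 20 counts only through that side and had to be called. Sftpb, the surfactant protein needed to spread the lipid film, was the sole gene beside the 2 of the rule whose wells did not overlap between the sides. It had 0 to 6007 CPM per well (median 340) on the Scgb3a1 side and 6343 to 25000 (median 16107) on the Sftpc side, 16.2-fold (14.7 to 17.8). The surfactant collectin Sftpa1 overlapped, at 0 to 20142 CPM (median 3630) and 4997 to 47100 CPM (median 21098), 4.66-fold (4.44 to 4.89). The further collectin Sftpd was 7.49-fold higher (6.70 to 8.38) and present in 95.9% of wells of the Scgb3a1 side (77.1% after thinning). Transcripts of Sftpb, Sftpa1 and Sftpd were therefore detected on both sides at different levels.

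Of 19 measured genes of surfactant and lamellar bodies other than Sftpc, 13 were at least 2-fold higher on the Sftpc side, none on the Scgb3a1 side and 6 on neither (median log2 -2.68). The 6 were genes of phospholipid synthesis such as Pcyt1a and Chpt1, and the lipase Ces1d. The share of all measured genes called on the Sftpc side was 19.7%. Here too, Napsa and Lamp3 reached 20 counts only through that side and had to be called. Napsa, the protease that matures surfactant proteins, had 712 counts on the Sftpc side and none on the other. It was at least 506-fold higher with 3 counts in place of 0 (near bound 410-fold). Lamp3, a lamellar body membrane protein, was in 98.4 and 1.35% of wells, 738-fold higher (132 to 29223) with 1 count on the Scgb3a1 side. The phosphate carrier Slc34a2 was at 114 to 7882 CPM per well (median 4250) on the Sftpc side and at 0 in all but 9.46% of wells of the other, 183-fold (102 to 368). The lipid transporter of lamellar bodies, Abca3, was 11.5-fold higher (8.28 to 16.3) and present in 47.3% of wells of the Scgb3a1 side (20.2% after thinning). Lgi3 and the tight junction gene Cldn18 had no count on the Scgb3a1 side and were at least 141-fold and at least 98.8-fold higher. Their near bounds were 113-fold and 79.3-fold. Complement gene Hc (151-fold, 64.3 to 469), the ribonuclease Rnase4 (270-fold, 73.9 to 2239, from 2 counts), the calcium binder S100g (337-fold, 59.6 to 13390, from 1 count) and the chitinase Chia1 (at least 124-fold) completed the genes furthest apart. The near bound for Chia1 was 99.5-fold. Chia1 was uneven, with a count in 54.0% of wells of the Sftpc side and 15.5% of its counts in 1 well.

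Genes of lipid synthesis were mostly higher on the Sftpc side. Of 20 measured genes of fatty acid synthesis 14 were at least 2-fold higher there and 1 on the Scgb3a1 side (median log2 -2.16). The shares of all measured genes called were 19.7% on the Sftpc side and 13.2% on the Scgb3a1 side. Fabp5 and Acss2, named below, reached 20 counts only through the side where they were high and had to be called. Stearoyl-CoA desaturase Scd1, which makes monounsaturated fatty acids, had 341 to 19184 CPM per well (median 4967) on the Sftpc side and 0 to 1450 (median 0) on the other, 130-fold (87.1 to 204). Fatty acid synthase Fasn was 17.3-fold higher (11.2 to 28.0), the elongase Elovl1 28.9-fold (18.9 to 46.3) and the fatty acid binder Fabp5 294-fold (51.9 to 11705, from 1 count). Acss2, an acetyl-CoA synthetase, went the other way, with 29 counts against none. Of 13 measured cholesterol genes 10 were higher on the Sftpc side and 1 on the Scgb3a1 side (median log2 -1.45). Insig1, a sterol-regulated inhibitor of the pathway, was 9.42-fold higher (4.97 to 19.4) and Idi1, an isomerase of the pathway, 5.09-fold (2.88 to 9.38). These are low counts: the cholesterol list's median was -0.50 from 1 measured gene within the first set and -0.93 within the third.

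Transcripts of MHC class II antigen presentation were found mostly on the Sftpc side. All 4 measured class II genes, of 9 listed, were at least 2-fold higher there (median log2 -5.86), against 19.7% of all measured genes. They reached 20 counts through the Sftpc side, so their calls were fixed in advance. The invariant chain Cd74 had 380 counts against 10, 81.0-fold (43.6 to 170), in 93.7 and 9.46% of wells. H2-Aa was 80.3-fold higher (26.8 to 395), in 65.1% of wells (55.0% after thinning). H2-Ab1 was at least 41.9-fold higher (near bound 33.0-fold), in 41.3% of wells (33.6% after thinning). For class I, 2 of 8 genes were at least 2-fold higher on the Scgb3a1 side, both from few counts: H2-T23 had 19 against 4, with an interval that includes 1 (0.740 to 9.00), and Tap2 20 against 1. None was on the Sftpc side, where the abundant H2-D1 (1.91-fold) and H2-K1 (1.69-fold) were higher without reaching 2-fold, and the list summed to 1173 CPM on the Scgb3a1 side and 1471 CPM on the Sftpc side. Beta-2-microglobulin B2m was at 236 and 258 CPM. Class I genes are near copies of one another, and their counts are uncertain for that reason. Immune cell markers summed to 1.95 CPM on the Scgb3a1 side and 4.15 CPM on the Sftpc side, with the leukocyte gene Ptprc at 0 on both. Of 17 lysosomal genes 5 were higher on the Sftpc side, among them the protease Ctsc (20.1-fold, 12.7 to 33.7) and the sterol carrier Npc2 (7.56-fold, 6.54 to 8.76), and 1 on the other.

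Transcription factors had low counts but several large ratios. Of 29 measured airway and alveolar factors 6 were at least 2-fold higher on the Scgb3a1 side and 13 on the Sftpc side (median log2 -0.61). The shares of all measured genes called were 13.2 and 19.7%, in the same order. Sox2 and Etv5 reached 20 counts only through the side where they were high and had to be called. Sox2, a factor of the conducting airway, had 63 counts against 1 (29.5-fold, 5.11 to 1185), in 56.8 and 1.59% of wells (25.8 and 0.512% after thinning). Etv5, an ETS factor of AT2 cells, had 2 counts against 170 (181-fold, 49.4 to 1509), in 2.70 and 82.5% of wells (1.12 and 72.1% after thinning). Nkx2-1, the factor that marks the lung epithelium, was on both sides and 4.03-fold higher on the Sftpc side (2.48 to 6.68). Cebpa was 5.61-fold higher there (3.55 to 9.09), and Foxa2 4.46-fold (2.09 to 10.1), while Foxa1 differed by 1.17-fold. Among immediate early genes, which are induced by cell dissociation as well as by signals, 4 of 18 (22.2%) were higher on the Sftpc side and 1 on the Scgb3a1 side, near the 19.7% of all measured genes called on the Sftpc side. The list's median log2 ratio was -0.54, and -0.15 with TMM factors. Among its members Jun was 3.06-fold (2.61 to 3.59) and Egr1 3.25-fold (2.60 to 4.08) higher on the Sftpc side.

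Structural and transport genes were mixed. For comparison, 13.2% of all measured genes were called on the Scgb3a1 side and 19.7% on the Sftpc side. Cldn18 and Areg, named below, reached 20 counts only through the Sftpc side and had to be called. Of 18 measured keratin and junction genes 7 were at least 2-fold higher on the Scgb3a1 side, 1, Cldn18, on the Sftpc side and 10 on neither (median log2 0.42). Keratins Krt8, Krt18 and Krt19 were 3.74-fold (3.09 to 4.57), 2.53-fold (1.98 to 3.27) and 10.8-fold (7.33 to 16.5) higher, and Krt8 was present in every well of the Scgb3a1 side. Of 25 annexin, S100 and related genes 17 were higher on the Scgb3a1 side and 3 on the Sftpc side (median log2 1.21). The calcium binder S100a6 was 26.5-fold higher (15.1 to 51.6), in 95.9 and 6.35% of wells (83.6 and 5.92% after thinning), and galectin 3 (Lgals3) 6.57-fold (4.53 to 9.85). The growth factor Areg was the opposite, with 1 count against 47, in 31.7% of wells of the Sftpc side (24.8% after thinning). Of 17 ion and water transport genes 8 were higher on the Scgb3a1 side, led by the sodium pump regulator Fxyd3 (34.9-fold, 13.5 to 129) and including the monocarboxylate carrier family member Slc16a11 (13.6-fold, 7.48 to 27.4), and 2 on the Sftpc side. The median log2 ratio of that list was 0.49, and -0.05 and -0.14 within the first and the third set.

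Other lists had few calls or calls on both sides. Of all measured genes, 13.2% were called on the Scgb3a1 side and 19.7% on the Sftpc side. Nrarp and Nkd1, named below, reached 20 counts only through the side where they were high and had to be called. None of the 27 measured respiratory chain genes reached 2-fold in either direction on plain totals (median log2 0.03, range -0.50 to 0.63), and with TMM factors the log2 ratio of Ndufc1 was 1.02. Of 31 genes of the secretory machinery of the endoplasmic reticulum 1 was higher on each side, the retrieval receptor Kdelr1 (2.02-fold) on the Scgb3a1 side and the chaperone Dnajb9 (2.42-fold) on the Sftpc side, a call that is lost with TMM factors, where the log2 ratio of Dnajb9 was -0.89. The chaperone Hspa5 was at 588 and 602 CPM. Of 6 measured Notch genes, Nrarp, a feedback target of Notch, was 8.44-fold higher on the Scgb3a1 side (2.17 to 72.4, from 2 counts), and the target Hes1 was at 197 and 195 CPM. Of 8 Wnt, BMP and TGF-beta genes 3 were higher on each side. The median log2 ratio of that list, 0.34, changed direction in 5 alternatives, to between -1.24 and -2.74. The Wnt target Nkd1 had 30 counts on the Sftpc side and none on the other, at least 21.3-fold higher, in 34.9% of wells (25.7% after thinning). The near bound for Nkd1 was 16.3-fold.

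Markers of other cell types were checked on both sides. Of the sorted proteins, Epcam was at 79.9 and 129 CPM, Cd24a at 606 and 341 CPM, and Ptprc and Pecam1 at 0. Neuroendocrine, tuft, endothelial, immune, mesenchymal and erythroid lists each summed to at most 12.5 CPM on either side. The ciliated list summed to 688 CPM on the Scgb3a1 side (0 to 6731 per well) and 494 on the Sftpc side (0 to 1406), most of it Tubb4b, a tubulin of many cells, and the defining gene Foxj1 had a count in 3 and 0 wells. The basal list summed to 265 and 4.15 CPM, from the keratin Krt15 (107 counts against 1, with 29.9% in 1 well) and the water channel Aqp3 (28 against 0), which were found in 14.9 and 23.0% of wells of the Scgb3a1 side (10.7 and 11.0% after thinning). The ionocyte list summed to 76.0 and 245 CPM, and its measured gene Atp6v1c2, a proton pump subunit, was 3.23-fold higher on the Sftpc side (2.12 to 4.97) and past 2-fold there in each set. Their part in the differences above was not tested.

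Alveolar type 1 (AT1) markers, of the flat gas-exchange cell, were on different sides. Ager, the receptor for advanced glycation end products, was 122-fold higher on the Sftpc side (47.0 to 452), with 229 counts against 4 and a count in 93.7% of wells against 5.41% (83.7 and 2.21% after thinning). Emp2 was 6.17-fold higher there (3.61 to 11.0). Podoplanin Pdpn had 116 counts on the Scgb3a1 side, in 66.2% of wells (38.3% after thinning), and none on the Sftpc side, at least 18.1-fold higher. The near bound for Pdpn was 14.5-fold. Aqp5, Hopx and Clic5 differed by less than 2-fold. The list summed to 631 CPM (0 to 1905 per well) and 1762 CPM (0 to 4456 per well).

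The 90 kept wells on neither side show which side stood apart for a gene. They were rich in Scgb1a1, with a pooled 30.5% of counts, above 22.8% on the Scgb3a1 side and 4.49% on the Sftpc side. Cbr2 and Hp were likewise highest there, at 28516 and 7145 CPM. Bpifa1 and Reg3g were at 39.6 and 21.8 CPM in these wells, near their 54.0 and 16.6 CPM on the Sftpc side and far below 27752 and 6538 CPM on the Scgb3a1 side. Muc5b was at 89.1 CPM and Tff2 at 31.7 CPM. These pooled values lean on single wells. The top well on neither side held 44.4% of the counts there for Muc5b, 56.25% for Tff2 and 63.6% for Reg3g. The per-well median was 0 for each of them. On the other side, Lyz2, Scd1 and Slc34a2 were at 9.90, 156 and 51.5 CPM in wells on neither side, against 7878, 6083 and 3922 CPM on the Sftpc side. Sftpb, Sftpd, Npc2 and Cxcl15 were intermediate, at 5358, 2084, 1773 and 1542 CPM, between both sides in each case, and Sftpa1 was at 3988 CPM, below both. The transcription factor Klf4, at 454 and 291 CPM on the sides, was at 61.4 CPM in these wells.

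**Figure D4:**
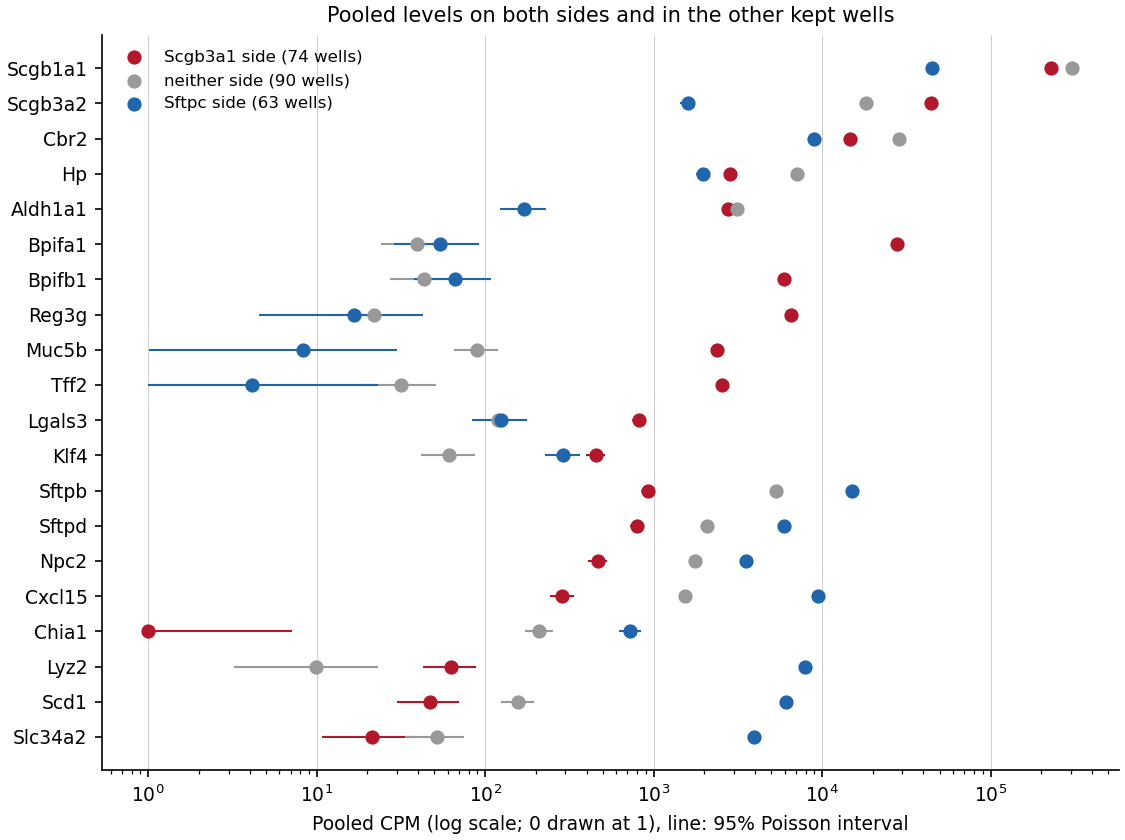
Pooled CPM (x axis, logarithmic, with 0 drawn at 1 and lines ending at 1) of 20 genes on the Scgb3a1 side, the Sftpc side and in the wells on neither side, with exact Poisson intervals as lines. Bpifa1 to Tff2 stand apart on the Scgb3a1 side, Lyz2 to Slc34a2 on the Sftpc side, and Sftpb lies in order across the 3 groups.

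Within sets, the direction of the largest differences was the same. All 24 genes furthest apart, 12 in each direction, kept their direction in each of the 3 sets, with 3 counts in place of 0. These genes were picked by their pooled ratios over the same wells, so this agreement is no separate support. The size of ratios was not the same. Scgb1a1 had a log2 ratio of 0.53 in the first set, 2.72 in the second and 3.17 in the third. Cyp2f2 had 1.21, 3.23 and 3.26. The first set holds 6 wells of the Sftpc side, of which 3 are among the 5 with high Scgb1a1. In the third set the Scgb3a1 side has 5 wells and 25682 counts, so that bounds for genes absent there are low, such as a log2 ratio of -4.63 for Napsa. By set, the AT2 list's median was -4.13, -5.65 and -3.24, the club list's 1.21, 2.06 and 1.93, and the goblet list's 1.81, 1.83 and 2.46.

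**Figure D5:**
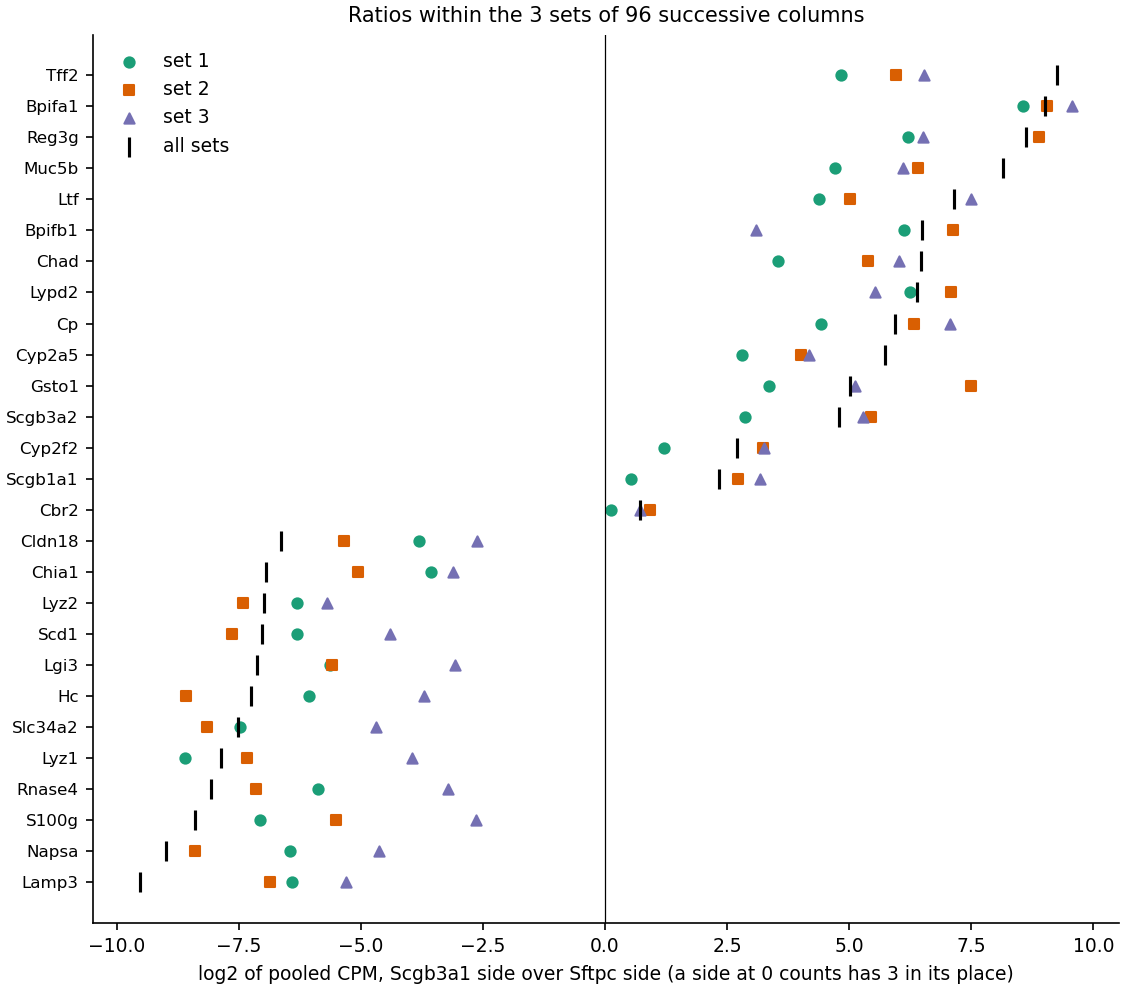
Log2 ratio of pooled CPM (x axis, Scgb3a1 side over Sftpc side) within each of the 3 sets and over all, for the 24 genes furthest apart and the club genes Scgb1a1, Cyp2f2 and Cbr2. All points of a gene lie on 1 side of 0. Cbr2 comes nearest to 0, at 0.11 in the first set, where Scgb1a1 is at 0.53.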

How the data were processed

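Single cells sorted into wells were sequenced after poly(A)-primed reverse transcription with a molecular barcode, template switching and PCR, per the labels' protocols. The authors deposited raw counts, 1 whole number for each gene symbol in each well. The submitters' processing notes name STAR, without a version, and mm10. No source used here gives the annotation, the counting tool, the strand setting or any collapsing of barcodes, and without collapsing the intervals would be too narrow. Of 24781 symbols 24241 matched GENCODE M21. No symbol named a spike-in or a mitochondrial gene, no 2 kept wells held identical counts, and 0 columns were left unmapped. No doublet caller was run.

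Wells were assigned to sides as described above. Counts were summed by side, and pooled CPM had exact Poisson intervals, ratios exact conditional binomial intervals and shares exact Clopper-Pearson intervals at 95%. A gene was called by size alone, at 2-fold with at least 20 counts over both sides. A side at 0 counts was given 3 in its place. The script was tested on simulated data. Named genes were the 12 furthest apart in each direction by the interval bound nearest to 1, and of each list the 3 with most counts and the 2 with the largest ratio, plus the marker lists. Genes named outside this rule (Hp, Agr2, Clca1, Pigr, Lcn2, Chil1, Abca3, Nkx2-1, Cebpa, Foxa1, Foxa2, Acss2, Pcyt1a, Chpt1, Ces1d, Klf4 and those under other observations) were chosen after their values were seen. The members and lists were chosen with earlier results of these data known. Alternatives were other scalings (TMM from edgeR 4.0.16 in R 4.3.3), limits on shares, totals and counts, and single sets or wells left out. Python 3.11.15 with numpy 2.4.6, scipy 1.17.1, pandas 2.3.3 and matplotlib 3.10.9 was used.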

Additional observations from a re-analysis of the deposited data

Results flagged for a closer look

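Among the 6 wells of the Sftpc side in the first set, 1 held Scgb3a2 at 1.98% of its counts, while the others held 0 to 0.519%, and this well lay apart from the rest by Dixon's criterion. The same well held Scgb1a1 at 20.5% and Sftpc at 2.07%, the lowest Sftpc share on its side, in 8806 counts. In all, 10 groups of values were examined in this way, and chance marks about 1 in 20.

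Wells left out for low totals still held the genes of the rule. Of the 59 wells, 5 had more than 3 Scgb3a1 counts, where the controls had at most 1, and 22 had more than 3 Sftpc counts, where the controls had 0. The median total of these 59 wells was 1035 counts.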

How the results depend on the processing

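Genes higher on the Scgb3a1 and the Sftpc side numbered 773 and 472 with TMM factors, 207 and 260 at 4-fold, 1102 and 2956 with at least 1 count, and 222 and 255 with at least 50. They were 243 and 180 within the first set, 326 and 290 within the second, 87 and 240 within the third and 312 and 483 without the second. A share limit of 5% left 34 wells on the Scgb3a1 side and 312 genes, and totals of at least 5000 left 67 and 8 wells and 414 genes on the Sftpc side. Without the third set 492 were higher on the Sftpc side. The Wnt, BMP and TGF-beta list, with 8 measured genes, turned from a median of 0.34 to -1.60 at the 5% limit, -2.74 and -2.48 without the first and second set, -1.38 within the second and -1.24 with at least 50 counts. Xenobiotic metabolism was at 0.75 with totals of at least 5000 and 0.80 within the first set; cholesterol synthesis at -0.72 and -0.50, and at -0.93 within the third. Transcription factors were at -1.0 without the first set, and annexins and lysosome at 0.80 and -1.14 within the third. Hopx had -1.24 and Prdx6 -0.10 within the first set, Clic5 1.43 within the second and Tppp3 1.31 without the third. Fewer wells enter the settings by set, share or total; the cause of the other shifts was not tested. Of 21 lists 15, and of 108 named genes 72, kept their side of the 2-fold limit throughout. Below that limit a change of sign was not counted, as for the antioxidants. Leaving out the 5 Sftpc-side wells with high Scgb1a1, chosen after seeing the data, left 760 genes higher on the Sftpc side. No paired analysis was possible because the wells of the sides carry no shared replicate number and the result comes from no test. Depth limits low genes most: 3 counts are 12.5 CPM on the Sftpc side.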

Other observations

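Genes in none of the lists also differed, and were chosen after their values were seen. On the Scgb3a1 side, the hypoxia factor Epas1 had 896 counts against 115 (log2 1.87), the peptidoglycan receptor Pglyrp1 168 against 3 (log2 4.71), the amidating enzyme Pam 176 against 9 (log2 3.20) and the forkhead factor Foxq1 153 against 7 (log2 3.36). On the Sftpc side, the surfactant-associated gene Sfta2 had 254 against 21 (log2 -4.69), the lipogenesis regulator Mid1ip1 134 against 8 (log2 -5.16), the carboxypeptidase Cpm 131 against 3 (log2 -6.54) and the adhesion molecule Icam1 105 against 33 (log2 -2.76).

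Noncoding RNAs, also chosen after their values were seen, were as follows. The small RNA gene Rn4.5s had 9930 CPM there and 1746 on the Scgb3a1 side. Malat1, a nuclear RNA, had 1318 counts against 657 (log2 -2.10). The ribosomal RNA Rn45s took 11.7% of the counts on the Sftpc side and 8.83% on the Scgb3a1 side, 1.33-fold and under the 2-fold limit, and with TMM factors the log2 ratio of Rn45s was -0.02. Depth was also lower on the Sftpc side, with a median total of 3529 counts against 6940.5, and its part in these differences was not tested.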
